A study of Mus musculus with 24 samples.

Results

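Of the 14537 genes counted in each tissue, 9 make up the salvage of nicotinamide adenine dinucleotide (NAD) and its use by sirtuins as described here: Nmrk2, Nmrk1, Nampt, Naprt, Nmnat1, Nmnat3, Nnmt, Sirt1 and Sirt3. The members were taken by symbol, all 9 had a row in both tissues, and all 9 passed the filter on low counts in muscle (12760 genes tested) and in heart (13846 genes). They were picked with the differences between the study's groups already in view. Within a tissue their differences between groups are therefore given as values with standard errors, with no p-value for any member. Counts of members past a threshold only describe them and are no evidence for the choice. RNA of male mice (strain C57BL/6J) was sequenced in 2 tissues, skeletal muscle and heart, with 3 groups of 4 libraries in each. The 24 libraries come from 16 animals, of which 8 gave both tissues. Control mice had sham surgery and are labelled as untreated, although the cell line is named in their labels too. KPC mice carried orthotopic KPC32908 pancreatic cancer cells and received vehicle, so that a difference between KPC and control covers tumour and vehicle together. KPC+GnP mice, with these cells as well, were given a pair of drugs, gemcitabine, which blocks DNA synthesis, and nab-paclitaxel, which stabilises microtubules. The sources used here do not give the muscle sampled, the ages of the mice, the doses or the times, and all tumours came from 1 cell line. The series asks what this treatment changes in the cachexia, or wasting, of pancreatic cancer.

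NAD carries electrons in metabolism and is broken down by enzymes that use it as a substrate, which release nicotinamide. Nampt turns nicotinamide into nicotinamide mononucleotide, the main salvage step in most mammalian tissues. Nmrk1 and Nmrk2 make the same mononucleotide by phosphorylating nicotinamide riboside, and Nmrk2 is the form known for its expression in muscle. Naprt, nicotinic acid phosphoribosyltransferase, starts a parallel route from nicotinic acid. The Nmnat enzymes complete NAD from the mononucleotides, Nmnat1 in the nucleus and Nmnat3 in mitochondria. Nnmt removes nicotinamide by methylating it, and Sirt1 (mainly nuclear) and Sirt3 (mitochondrial) are deacetylases that consume NAD.

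In GENCODE vM21 of GRCm38 the members lie apart from each other. Nmrk2 is at chr10:81198170-81202051 on the minus strand and Sirt1 at chr10:63319005-63381704, also minus. Nmrk1 is at chr19:18631950-18652428 (plus), Nampt at chr12:32819545-32853349 (plus) and Naprt at chr15:75890956-75894481 (minus). Nmnat1 is at chr4:149467572-149485202 (minus), Nmnat3 at chr9:98287435-98420438 (plus), Nnmt at chr9:48591877-48605153 (minus) and Sirt3 at chr7:140863666-140882309 (minus). Counts cover whole genes, so no exon or isoform is told apart.

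RefSeq promoter windows of GRCm38.p6, 300 bases each from upstream of a start site to just past it, were at hand for 7 of the 9 members (not Nnmt or Naprt). Those of the 3 genes whose muscle values differed most between groups are shown, in coding direction, with capitals marking each CACGTG, the E-box bound by clock and MYC family factors. They are Nmrk2 at chr10:81201988-81202287, Sirt1 at chr10:63338986-63339285 and Sirt3 at chr7:140882260-140882559, each on the minus strand.
Nmrk2: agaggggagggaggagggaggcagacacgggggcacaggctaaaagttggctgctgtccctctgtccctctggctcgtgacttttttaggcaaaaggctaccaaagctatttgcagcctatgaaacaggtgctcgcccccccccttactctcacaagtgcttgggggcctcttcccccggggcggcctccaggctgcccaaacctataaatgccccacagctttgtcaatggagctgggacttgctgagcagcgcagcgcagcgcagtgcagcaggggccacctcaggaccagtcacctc
Sirt1: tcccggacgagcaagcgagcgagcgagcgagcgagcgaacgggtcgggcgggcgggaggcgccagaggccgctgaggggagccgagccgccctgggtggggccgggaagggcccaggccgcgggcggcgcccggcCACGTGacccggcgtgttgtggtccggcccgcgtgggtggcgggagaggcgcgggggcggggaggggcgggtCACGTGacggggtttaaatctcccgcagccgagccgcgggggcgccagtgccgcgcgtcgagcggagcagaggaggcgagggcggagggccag
Sirt3: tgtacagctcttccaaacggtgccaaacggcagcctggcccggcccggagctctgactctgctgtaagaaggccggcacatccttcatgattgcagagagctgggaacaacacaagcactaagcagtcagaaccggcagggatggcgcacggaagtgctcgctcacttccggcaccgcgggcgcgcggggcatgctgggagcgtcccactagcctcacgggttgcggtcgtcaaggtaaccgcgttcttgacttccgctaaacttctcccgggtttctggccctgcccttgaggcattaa
CACGTG occurred at -115 and -43 from the Sirt1 start site and in no other member's window, and 7.15% of 32851 mouse promoters of this length hold it. Searched on both strands, neither TGACGTCA (CREB site, in 1.79% of promoters), GTAAACA (FOXO site, 3.65%) nor AGAACA (core of the glucocorticoid receptor site, 19% of promoters) was in any of these 7 members' windows. The looser CANNTG, which includes CACGTG, was in 72.3% of promoters and occurred at 2 places in the Nmrk2 window. These are matches of letters and no binding was measured.

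Total counts were 18285396 to 27382432 per muscle library and 11020931 to 20969551 per heart library. Summed skeletal fibre markers were 110915 to 185666 CPM (counts scaled to depth, with TMM factors within a tissue) in muscle, and summed cardiomyocyte markers were 34192 to 75690 CPM in heart. Both libraries of animal 141, KPC 1 in muscle and KPC 4 in heart, stood apart from their group. Over log2 CPM of all genes tested, its muscle library correlated with the 4 controls at a mean r of 0.973 and with the other KPC libraries at 0.950, and its heart library at 0.971 and 0.927. The KPC results that moved most without that animal are given both ways. In these whole-tissue libraries, fewer cells of a type and less RNA per cell cannot be told apart, and with nothing in the labels on litters or batches p-values measure the spread between these animals.

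The largest difference of any member was that of Nmrk2 in muscle. Control muscle had 29.3, 88.3, 57.7 and 104 CPM, KPC muscle 31.6, 0.896, 0.942 and 1.65 CPM, and KPC+GnP muscle 36.6, 86.3, 148 and 162 CPM. KPC libraries 2 to 4 lay far below every control, down to 23 reads in a library, while KPC 1, that of animal 141, lay at the level of the lowest control, so the groups overlapped. KPC muscle was 7.99-fold lower than control (8.78 ± 15.2 against 69.8 ± 33.0 CPM, SD, n = 4; log2 difference -3.00 ± 0.99, SE). Without animal 141 the log2 difference was -5.92 ± 0.64. KPC+GnP muscle (108 ± 57.9 CPM) was 12.4-fold above KPC, with a log2 difference of 3.63 ± 1.02, or 6.54 ± 0.65 without animal 141, and all 4 KPC+GnP libraries lay above all 4 KPC libraries. Against control, KPC+GnP differed by 0.63 ± 0.91 and the groups overlapped. The 2 differences from KPC rest on the same 4 KPC libraries. Summed fibre markers in the same muscles, 7 of 7 detected, were 120156 to 157170 CPM in control, 110915 to 185666 in KPC and 122508 to 129979 in KPC+GnP. Of these 7, Myh2, the myosin of fast oxidative fibres, was lower in every KPC muscle than in every control (696 to 1939 against 2200 to 2702 CPM), and the other 6 overlapped. The summed cardiomyocyte list, of which Actc1, Myl2 and Myl3 made up nearly all in muscle while Tnni3 had at most 5 reads, was at 482 to 790 CPM in control muscle, 480 in KPC 1, 224, 95.8 and 136 in KPC 2 to 4, and 301 to 841 in KPC+GnP muscle. That list is named for its use in heart, and in muscle its sum is not read as cardiomyocyte content. The part of the cells expressing the genes of either list in the Nmrk2 values was not tested.

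The other riboside kinase, Nmrk1, stayed within 3.11 to 4.75 CPM in all 12 muscle libraries. Its log2 difference was -0.09 ± 0.16 for KPC against control and 0.30 ± 0.16 for KPC+GnP against KPC, where the 4 treated libraries (4.31 to 4.75 CPM) lay above the 4 KPC libraries (3.16 to 4.26 CPM).

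Nampt had 253, 221, 173 and 216 CPM in control muscle, 207, 362, 283 and 307 in KPC muscle and 282, 241, 256 and 190 in KPC+GnP muscle. KPC libraries 2 to 4 were above every control and KPC 1 was not. The log2 difference was 0.42 ± 0.18 for KPC against control, 0.54 ± 0.15 without animal 141, and -0.26 ± 0.18 for KPC+GnP against KPC, or -0.39 ± 0.15 without it. Naprt was low throughout, at 1.66 to 3.07 CPM in control, 1.21 to 2.41 in KPC and 2.20 to 2.65 in KPC+GnP muscle, or 31 to 68 reads per library. Its log2 differences were -0.45 ± 0.25 for KPC against control and 0.46 ± 0.25 for KPC+GnP against KPC, or -0.65 ± 0.25 and 0.64 ± 0.25 without animal 141.

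The adenylyl transferases differed little in muscle. Nmnat1 had 13.9 ± 1.25 CPM in control, 12.9 ± 1.56 in KPC and 15.1 ± 1.87 in KPC+GnP mice, and Nmnat3 had 15.1 ± 1.23, 15.1 ± 1.64 and 15.4 ± 1.79 CPM (SD, n = 4 each). Every log2 difference between muscle groups lay within 0.23 for Nmnat1 and within 0.03 for Nmnat3, each under 2 of its standard errors. Without animal 141 the differences from KPC were -0.18 ± 0.13 and 0.29 ± 0.13 for Nmnat1, and -0.09 ± 0.11 and 0.10 ± 0.11 for Nmnat3. Nnmt had few reads in muscle, 7 to 47 per library, and its log2 differences of 0.08 ± 0.43, -0.28 ± 0.44 and -0.20 ± 0.44 (KPC against control, KPC+GnP against KPC and KPC+GnP against control) were smaller than their errors.

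The sirtuins differed in opposite directions in KPC muscle. Sirt1 had 11.2, 10.7, 11.1 and 11.4 CPM in control, 14.0, 23.7, 20.6 and 21.3 in KPC and 15.1, 12.9, 12.2 and 13.0 in KPC+GnP muscle. Every KPC library was above every control, with KPC 1 the lowest of its group, and every KPC+GnP library was also above every control. KPC was 1.79-fold above control (log2 difference 0.84 ± 0.15, or 0.96 ± 0.10 without animal 141), and KPC+GnP was 1.5-fold below KPC (-0.58 ± 0.15, or -0.72 ± 0.10 without it). Against control, KPC+GnP differed by 0.26 ± 0.15.

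Sirt3 had 14.6, 15.4, 14.4 and 14.3 CPM in control muscle, 8.91, 3.23, 3.89 and 5.0 in KPC and 17.2, 8.84, 14.5 and 13.4 in KPC+GnP. Every KPC library was below every control, and KPC 1 was again nearest to the controls, at the level of KPC+GnP 2. KPC was 2.79-fold below control (log2 difference -1.48 ± 0.28, or -1.88 ± 0.21 without animal 141), and KPC+GnP was 2.56-fold above KPC (1.36 ± 0.28, or 1.74 ± 0.21 without it). KPC+GnP differed from control by -0.12 ± 0.27.

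**Figure D1:**
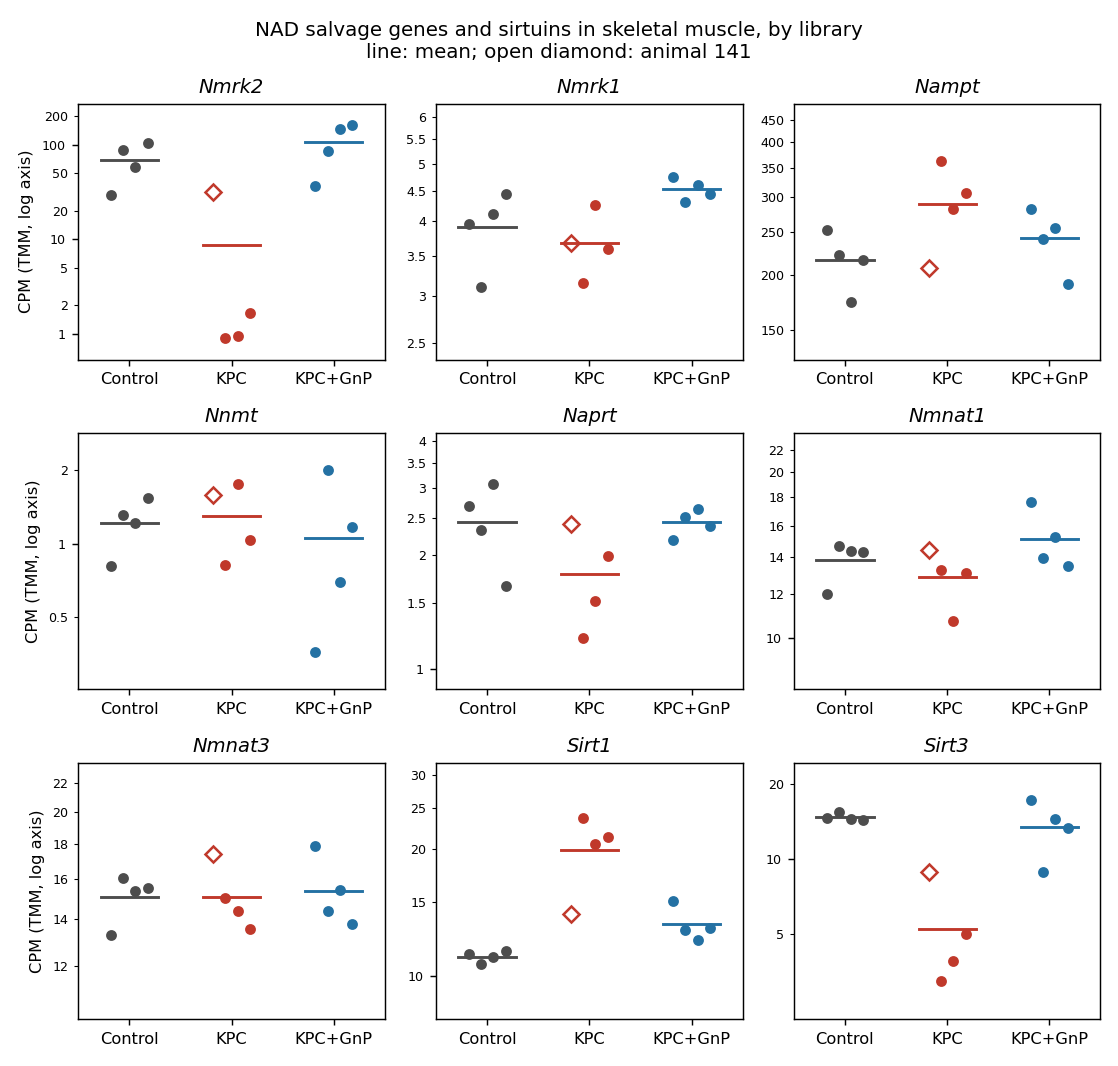
CPM (TMM scaled, log axis) of the 9 genes in each of the 12 muscle libraries, with a line at each group's mean and an open diamond for animal 141. Nmrk2 and Sirt3 lie low and Sirt1 high in KPC 2 to 4, and the KPC+GnP libraries lie near the controls.

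At an edgeR adjusted p under 0.05, KPC and control muscle differed in 3 of the 9 genes (1 higher, 2 lower) beside 49.7% of all 12760 genes. In 2 of the 9 the groups did not overlap, beside 37.2% of all genes. KPC+GnP and KPC differed in 3 of the 9, with 2 higher and 1 lower, beside 49.8% of all genes. Groups did not overlap for 2 of the 9 beside 33.6% of all genes. Without animal 141 the count at an edgeR adjusted p under 0.05 was 5 of 9 in either comparison, beside 7993 and 8056 of all genes. Against control it was 2 of 9 without KPC 3 or KPC 4. KPC+GnP and control differed in 0 of the 9 and in 0 of all genes by edgeR, with 413 genes at an unadjusted p under 0.05 and 1 gene called by DESeq2; groups did not overlap for 1 of the 9 (Sirt1) beside 4.40% of all genes. These counts only describe the members, which were chosen from these comparisons. Summed fibroblast markers, 7 of 7 detected, moved in the same muscles, at 662 to 1716 CPM in control, 216 to 346 in KPC and 544 to 1004 in KPC+GnP. Their part in the values was not tested.

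In heart the riboside kinases were low. Nmrk2 had 10.2, 3.59, 2.61 and 2.63 CPM in control, 4.80, 1.18, 1.98 and 5.14 in KPC and 9.23, 10.8, 4.87 and 13.4 in KPC+GnP hearts, from 22 to 178 reads per library. Control 1 stood far above the other controls, and the treated libraries were on average the highest. The log2 difference was -0.52 ± 0.55 for KPC against control, -0.81 ± 0.59 without animal 141, and turned to 0.16 without control 1. It was 1.54 ± 0.55 for KPC+GnP against KPC, with groups that overlapped, and 1.83 ± 0.60 without animal 141. Against control, KPC+GnP differed by 1.01 ± 0.54, and by 1.70 without control 1. Nmrk1 ranged from 3.16 to 5.03 CPM over the 12 hearts, with log2 differences of -0.04 ± 0.18, 0.26 ± 0.18 and 0.22 ± 0.18 in the same order.

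Nampt had 336, 265, 295 and 323 CPM in control, 362, 475, 499 and 445 in KPC and 223, 324, 349 and 228 in KPC+GnP hearts. All 4 KPC hearts, that of animal 141 included, lay above all 4 controls and above all 4 treated hearts. KPC was 1.46-fold above control (log2 difference 0.55 ± 0.17, and 0.55 ± 0.18 without animal 141), and KPC+GnP was 1.58-fold below KPC (-0.66 ± 0.17, and -0.66 ± 0.18 without it). Summed neutrophil markers (7 of the 8 listed had a row and all 7 were detected) were also higher in KPC hearts, at 23.0 to 301 CPM against 5.22 to 15.7 in control and 9.01 to 30.9 in KPC+GnP, and macrophage markers (6 of 6 detected) ran from 291 to 1702 CPM against 245 to 450 and 275 to 541. Their part in the Nampt values was not tested. Animal 141 had 23.0 CPM of neutrophil and 291 CPM of macrophage markers, the lowest of the KPC hearts, with Nampt at 445 CPM.

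Naprt, unlike in muscle, was counted well in heart, with 13.1 ± 2.61 CPM in control, 12.5 ± 3.68 in KPC and 12.9 ± 1.68 in KPC+GnP (SD, n = 4 each), and its log2 differences lay within 0.06 of 0. Nmnat1, the nuclear form, had 20.5, 16.6, 18.9 and 17.3 CPM in control, 15, 9.42, 12.1 and 13.4 in KPC and 12, 14.2, 12.4 and 13.4 in KPC+GnP hearts. Each KPC and each KPC+GnP heart lay below each control heart. The log2 difference from control was -0.55 ± 0.14 for KPC, -0.58 ± 0.16 without animal 141, and -0.49 ± 0.14 for KPC+GnP, while KPC+GnP and KPC differed by 0.05 ± 0.14. The comparisons with control rest on the same 4 control libraries. Nmnat3 had 21.6 ± 2.29, 19.5 ± 3.31 and 19.0 ± 2.20 CPM, and its groups overlapped in every comparison.

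Nnmt had 2.34, 4.01, 2.47 and 2.68 CPM in control, 16.1, 19.7, 6.10 and 2.00 in KPC and 16.0, 7.64, 14.6 and 1.97 in KPC+GnP hearts. In either tumour group 3 of 4 hearts lay above every control, and the exceptions, KPC 4 (animal 141) and KPC+GnP 4, lay below every control. The log2 difference from control was 1.94 ± 0.68 for KPC, 2.28 ± 0.58 without animal 141, and 1.81 ± 0.68 for KPC+GnP. KPC+GnP hearts 1 to 3 also carried 398 to 610 CPM of summed brown adipocyte markers and 304 to 639 CPM of white adipocyte markers, against 28 and 5.54 CPM in KPC+GnP 4 and at most 30.7 and 5.37 CPM in controls, where Ucp1, the defining brown fat gene, was at 0. KPC hearts had at most 32.7 CPM of brown and, in KPC 2, 149 CPM of white adipocyte markers. Fibroblast markers ran from 984 CPM in KPC 4 to 2899 in KPC 1, against 1030 to 2243 in control and 1324 to 2142 in KPC+GnP. The part of these cells in the Nnmt values was not tested.

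Sirt1 had 18.5 to 22.1 CPM in control, 20.7 to 33.6 in KPC and 19.8 to 24.2 in KPC+GnP hearts, with a log2 difference of 0.35 ± 0.14 for KPC against control (0.35 ± 0.15 without animal 141) and groups that overlapped. Sirt3 had 35.6, 25.9, 37.6 and 33.2 CPM in control, 26.1, 12, 19.0 and 27.6 in KPC and 26.6, 31.0, 33.1 and 31.7 in KPC+GnP hearts. KPC 2 and 3 lay below every control, and KPC 1 and 4 lay near the lowest control. Its log2 difference was -0.64 ± 0.22 for KPC against control, -0.80 ± 0.22 without animal 141, and 0.53 ± 0.22 for KPC+GnP against KPC, or 0.68 ± 0.22 without it. Summed cardiomyocyte markers, 6 of 6 detected, were 54069 to 75690 CPM in control hearts, 51621, 34192, 49281 and 72048 in KPC 1 to 4 and 34762 to 64160 in KPC+GnP. KPC 2 was lowest in its group for these markers, for Sirt3 and for Nmnat1, and the part of the markers' cells in those values was not tested.

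**Figure D2:**
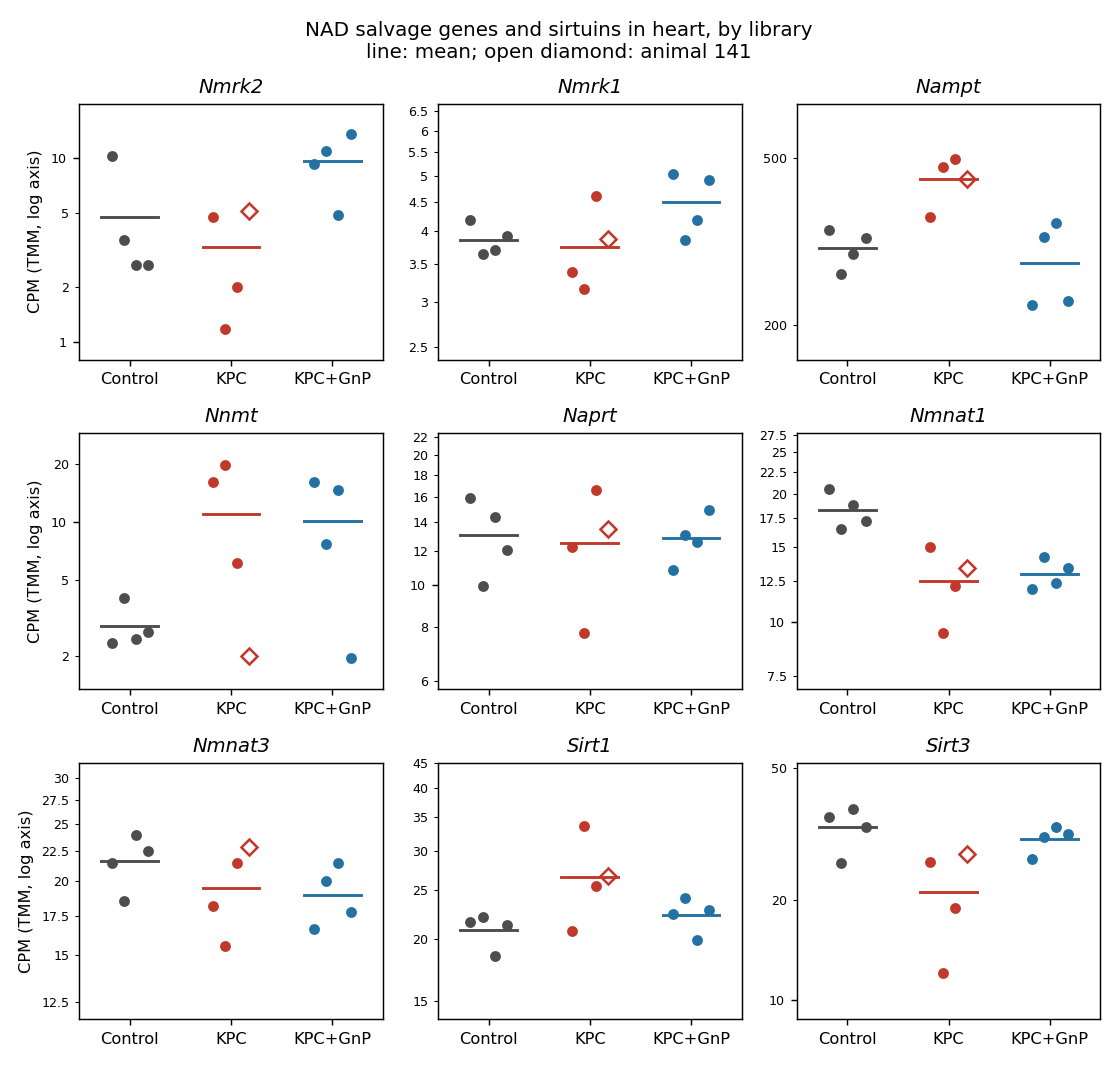
CPM (TMM scaled, log axis) of the 9 genes in each of the 12 heart libraries, with a line at each group's mean and an open diamond for animal 141. Nampt is highest in the 4 KPC hearts, Nmnat1 is highest in the 4 controls, and Nnmt is split within both tumour groups.

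Of the 9 genes, KPC and control hearts differed in 1 (lower) at an edgeR adjusted p under 0.05, beside 9.34% of all 13846 genes. For 2 (Nampt and Nmnat1) the groups did not overlap, beside 14.4% of all genes. The count at that threshold was 0 when any 1 control, KPC 2 or KPC 3 was left out. Without animal 141 it was 4, beside 3554 of all genes. The range of all-gene counts with 1 library left out, and the all-gene counts by DESeq2, are given with the alternative fits at the end. KPC+GnP and KPC differed in 0 of the 9 beside 1.55% of all genes. At an unadjusted p under 0.05 by edgeR there were 3 of the 9 beside 2886 of all genes, and DESeq2 called 1 of the 9. Groups did not overlap for 1 of the 9 (Nampt) beside 8.10% of all genes. KPC+GnP and control differed in 0 of the 9 beside 1.23% of all genes. At an unadjusted p under 0.05 by edgeR there were 2 of the 9 beside 2753 of all genes, and DESeq2 called 1 of the 9. Groups did not overlap for 1 (Nmnat1) beside 15.9% of all genes. As in muscle, these counts only describe the members, which were picked with the group differences in view.

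**Figure D3:**
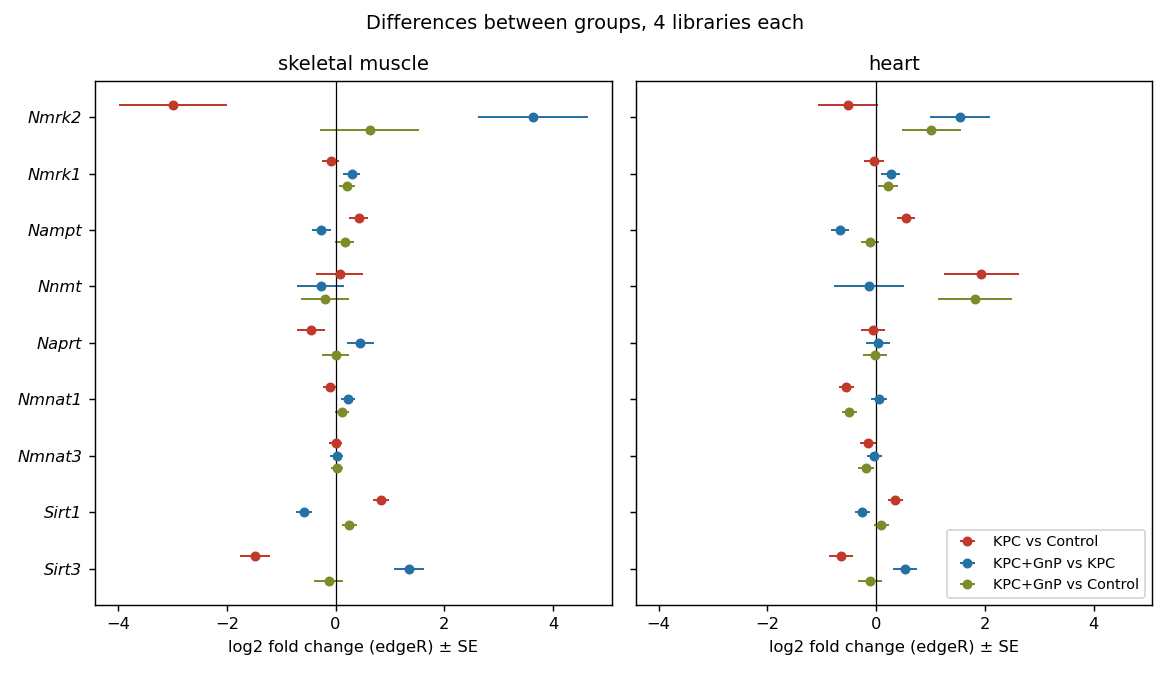
Fitted log2 difference of each gene with its standard error for KPC against control, KPC+GnP against KPC and KPC+GnP against control, in muscle and in heart. Nmrk2 in muscle reaches -3.00 and 3.63, and of the other members in muscle none passes -1.48 or 1.36.

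The tissues of control mice were compared in one edgeR fit of all 24 libraries over 14509 genes. Whether levels by tissue played a part in choosing the members is not recorded, so their p-values here are not independent evidence. Heart had 25.3-fold less Nmrk2 than muscle (3.68 against 92.1 CPM on the joint scale; log2 difference -4.66 ± 0.94, edgeR adjusted p = 0.000208), and Naprt was 3.16-fold higher in heart (10.1 against 3.21 CPM; 1.66 ± 0.24, adjusted p = 3.37e-06). Nmrk1 was also lower in heart by the edgeR test (-0.79 ± 0.16, adjusted p = 0.000223), and so was Nmnat1 (-0.37 ± 0.14, adjusted p = 0.0274). All 4 hearts lay beyond all 4 muscles for Nmrk2, Nmrk1 and Naprt, and not for Nmnat1. In total 4 of the 9 members differed (1 higher and 3 lower in heart) beside 59.5% of all genes, and the groups did not overlap for 3 beside 63.2% of all genes. The edgeR values of the other 5 genes were -0.27 ± 0.17 for Nampt (adjusted p = 0.181), 0.46 ± 0.61 for Nnmt (0.53), -0.25 ± 0.13 for Nmnat3 (0.115), 0.14 ± 0.14 for Sirt1 (0.393) and 0.40 ± 0.26 for Sirt3 (0.195). Scaling by library totals alone moved the median of all genes from 0.06 to 0.70. It left Nmrk2 at -4.02 and Naprt at 2.29, took Nmrk1 to -0.15 (edgeR adjusted p = 0.396), and turned Nampt, Nmnat1 and Nmnat3 to 0.37, 0.27 and 0.39, so that the small differences depend on the scaling. In the 3 control animals with both tissues, with the animal as a block, Nmnat1 no longer passed (-0.31, edgeR adjusted p = 0.0607) while Nampt (-0.30, 0.00538) and Sirt3 (0.50, 0.00140) did. Nmnat1 also missed the threshold without muscle control 2 or 4 or heart control 2 or 4 (-0.33 to -0.35 on the log2 scale, largest adjusted p 0.0776 by edgeR).

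Over the 6 groups on the joint scale, Nmrk2 ran from muscle KPC+GnP (139.8 ± 75.5 CPM) through muscle control (92.1 ± 44.3), muscle KPC (11.4 ± 19.8), heart KPC+GnP (7.42 ± 2.75) and heart control (3.68 ± 2.83) to heart KPC (2.56 ± 1.57), SD, n = 4 each. Each neighbouring pair in that order overlapped. Without animal 141, muscle KPC (1.45 ± 0.52, n = 3) came last, below heart KPC (2.08 ± 1.52, n = 3), and no longer overlapped muscle control. For Nmrk1 the 3 muscle groups lay above the 3 heart groups with no overlap between the lowest muscle group (KPC, 4.63 ± 0.59 CPM) and the highest heart group (KPC+GnP, 3.49 ± 0.43). For Naprt the order was reversed, the 3 heart groups lying above the muscle groups.

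Per length, on the deposited log2 FPKM scale, Nampt was the most abundant member in all 6 groups, at 5.56 to 6.30. In control muscle Nmrk2 came second at 5.49 ± 0.82 (SD, n = 4), followed by Nmnat1 at 4.26, Sirt3 at 3.62, Nmnat3 at 3.20 and Sirt1 at 1.91, with Nmrk1, Nnmt and Naprt at 1.68, 0.81 and 0.78. In KPC muscle Nmrk2 came seventh at 0.90 ± 2.42, or last of the 9 at -0.29 ± 0.45 (n = 3) without animal 141, and in KPC+GnP muscle second at 6.03 ± 0.98. In control heart Sirt3 (4.01), Nmnat1 (3.90) and Nmnat3 (2.95) followed Nampt, and Nmrk2 was the lowest of the 9 at 0.79 ± 0.91. Nmrk1 stood at 0.92 in control heart, so that the riboside kinases differed there by less than the spread of Nmrk2, while in control muscle Nmrk2 was far above Nmrk1.

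**Figure D4:**
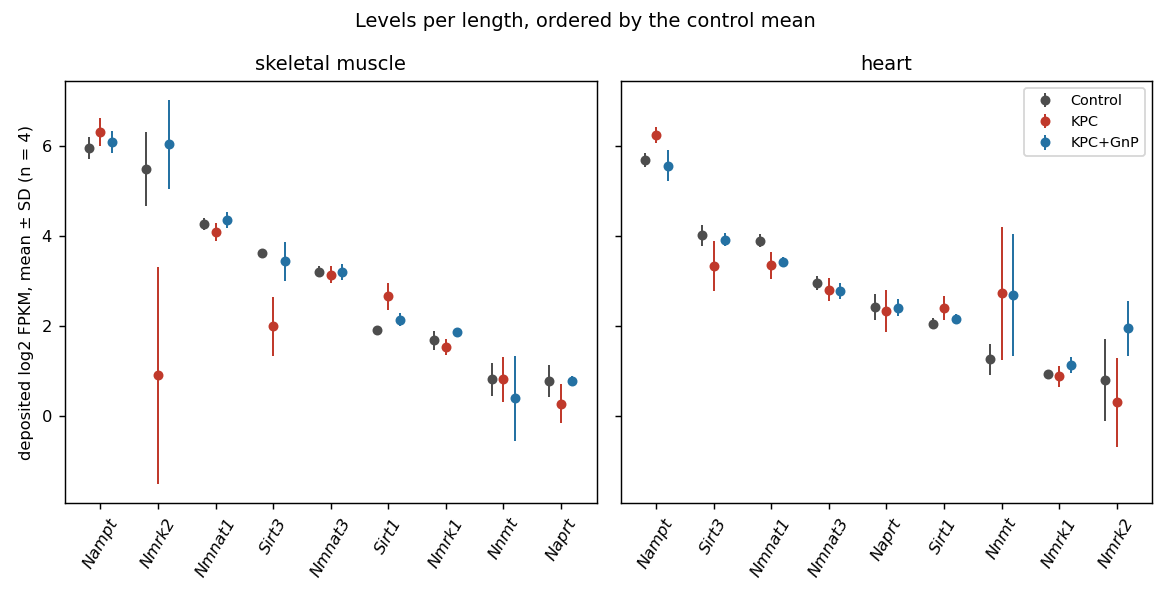
Mean deposited log2 FPKM of the 9 genes by group, with the standard deviation of 4 libraries. Nampt stays at the top in both tissues, and Nmrk2 lies second in control and KPC+GnP muscle, seventh in KPC muscle (last without animal 141) and last in control heart.

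The difference between tissues in the response was 2.54 ± 1.23 log2 units for Nmrk2 in KPC against control (heart minus muscle), 5.23 ± 0.91 without animal 141, and 3.00 ± 1.20 in the animals with both tissues, with the animal as a block. For KPC+GnP against KPC it was -2.12 ± 1.21, -4.81 ± 0.90 and -1.49 ± 1.23. Sirt3 differed by 0.91 ± 0.38 and -0.87 ± 0.38 in these comparisons, by 1.16 ± 0.32 and -1.12 ± 0.32 without animal 141 and by 0.53 ± 0.30 and -0.54 ± 0.34 with the block. Sirt1 differed by -0.41 ± 0.19 and 0.29 ± 0.19, by -0.54 ± 0.18 and 0.41 ± 0.18 without the animal and by -0.17 ± 0.23 and 0.09 ± 0.25 with the block. For Nnmt the values were 1.93 ± 0.85 and 0.12 ± 0.83, then 2.40 ± 0.80 and -0.35 ± 0.79, and 1.24 ± 0.98 and 1.18 ± 1.12. The second Nnmt value thus changed sign without animal 141, and the Sirt3 and Sirt1 values lay nearer to 0 in the fit with the block. That fit also holds only the animals with both tissues (3 control, 3 KPC and 2 KPC+GnP). The parts of the block and of the smaller set of animals cannot be told apart. Of the 9 genes, 0 passed an edgeR adjusted p of 0.05 in either difference, beside 25.8% and 25.7% of 14509 genes. At an unadjusted p under 0.05 by edgeR there were 3 and 1 of them, beside 5697 and 5680 of all genes. Without animal 141 the counts at an edgeR adjusted p under 0.05 were 4 and 2, beside 6291 and 6054 of all genes.

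The genes whose log2 CPM followed Nmrk2 most closely over the 12 muscle libraries, among 12158 named genes, were Tmtc4 (Pearson r = 0.981), Rgma (0.979), Smtn (0.977), Tcf4 (0.977) and Prokr1 (0.976). Their log2 differences between KPC and control muscle ran from -0.54 (Tcf4) to -2.24 (Prokr1) and between KPC+GnP and KPC from 0.56 to 2.44, all smaller than that of Nmrk2. After each group's mean was removed, with animal 141 kept, r was 0.916 to 0.963. Without animal 141, with group differences kept, it was 0.977 to 0.991. No coefficient leaves out both, and these genes were picked by r in the same libraries. Of the members, Sirt3 followed Nmrk2 in muscle at r = 0.903 (0.659 within groups, and 748th of 12759 genes from the highest r). Sirt1 and Nampt ran opposite to Nmrk2 at -0.915 and -0.749 (-0.913 and -0.757 within groups). They ranked 11462nd and 9498th of the 12759, so many genes ran more opposite to Nmrk2 than either. In heart the closest genes among 13160 were Nsmf (0.905), Btbd9 (0.903), Fhl1 (0.901), Nfyc (0.873) and Ehd4 (0.866). Sirt3 and Nampt stood at 0.609 and -0.614 there (0.584 and -0.329 within groups), 737th and 13227th of 13845 genes. These coefficients describe 12 libraries that share group, depth and the standing of animal 141, and those within groups keep that animal.

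Several members share sequence with a neighbour, and how strand was used in counting is not given in the sources used here, so reads of overlapping genes may not be told apart. The neighbours were looked up within 1000 bases after the members' values were known. Some overlapping neighbours had no row, so no value can be given for them. These were Ric8a (707 bases shared with Sirt3), Tmem274 (6172 with Nmnat1), Gm28530 (577 with Nmnat3) and Gm16145 (13035 with Sirt1). Nmrk2 lies wholly inside the antisense gene Atcayos, which had a log2 difference of -0.51 ± 0.31 in KPC against control muscle (edgeR adjusted p = 0.185) and 0.20 ± 0.31 in KPC+GnP against KPC (0.604). Sirt3 and Psmd13, a proteasome subunit gene on the other strand, overlap by 342 bases at their starts. Psmd13 rose in KPC muscle, where Sirt3 was low, by 0.93 ± 0.16 on the log2 scale (edgeR adjusted p = 0.000918), and fell with treatment by 1.05 ± 0.16 (adjusted p = 0.000550). In KPC against control hearts Psmd13 differed by 0.14 ± 0.11 (edgeR adjusted p = 0.411), where Sirt3 was at -0.64 ± 0.22. Naprt and Eef1d, a translation elongation factor gene, overlap by 277 bases on the same strand, and Eef1d rose in KPC muscle by 0.46 ± 0.08 (edgeR adjusted p = 0.00107) where Naprt differed by -0.45 ± 0.25. Nmnat1 and Lzic start 27 bases apart on opposite strands without overlap. In KPC hearts, where Nmnat1 was low, Lzic fell by 0.76 ± 0.14 (edgeR adjusted p = 0.0146). In muscle Lzic fell with treatment by 0.38 ± 0.13 (edgeR adjusted p = 0.0282), where Nmnat1 was at 0.23 ± 0.13. The neighbours Ostf1 (of Nmrk1), Gdap10 (of Nampt) and Dnajc12 (of Sirt1) passed in no comparison of groups in either tissue by edgeR. Dnajc12 starts 739 bases from the GENCODE start of Sirt1, which is not the RefSeq start site of the promoter window shown.

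A wider list of 63 genes of NAD synthesis, transport, use and regulation was tested for the other genes of the pathway. Of these, 57 had a row, and 50 in muscle and 56 in heart passed the filter. Tdo2, Ido1, Ido2, Kynu, Haao and Sarm1 had no row. In KPC against control muscle 23 of 50 passed an edgeR adjusted p of 0.05, 11 higher and 12 lower (46% of the list, beside 27.5% of all genes higher and 22.1% lower). Their median log2 difference was -0.06, beside 0.00 over all genes. Without animal 141 it was 13 higher and 16 lower, beside 4069 and 3924 of all genes. Leaving out KPC 2 took the higher count to 7.

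Poly(ADP-ribose) polymerases, which consume NAD, were the largest sublist tested and had the most calls in muscle, 11 of 15 beside 49.7% of all genes. Their median log2 difference was -0.42. Parp4, Tnks, Tiparp and Parp2 rose and 7 others fell. Tiparp and Parp2 were named after their values were seen. Parp4 had 20.1, 18.2, 22.4 and 23.8 CPM in control and 26.8, 79.5, 47.6 and 63.7 in KPC muscle (log2 difference 1.37 ± 0.25, edgeR adjusted p = 0.00110). Tnks, tankyrase, had 20.4 to 22 CPM in control and 22.9, 71.6, 52.2 and 53.0 in KPC muscle (1.23 ± 0.24, edgeR adjusted p = 0.00174). Without animal 141 these were 1.57 ± 0.14 and 1.44 ± 0.11. For either gene KPC 1 sat just above the controls and the other KPC libraries far above them. Of those that fell, Parp14 had 10.9, 8.64, 13.4 and 12.3 CPM in control and 6.58, 4.36, 5.36 and 5.29 in KPC muscle (-1.07 ± 0.20, edgeR adjusted p = 0.00126). Parp12 (-0.84 ± 0.16, adjusted p = 0.00130) and Parp9 (-0.90 ± 0.17, adjusted p = 0.00151) also fell by the edgeR test. All 3 are known as interferon-responsive members of the family. Parp1, the main DNA damage sensor of the family, was not called (-0.20 ± 0.15, edgeR adjusted p = 0.276).

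In the methyl cycle that takes up the product of Nnmt's reaction, Ahcy, S-adenosylhomocysteine hydrolase, rose in KPC muscle. It had 26.1, 22.4, 21.4 and 22.3 CPM in control, 39.8, 80.1, 70.3 and 83.7 in KPC and 19.7, 22.2, 24.9 and 20.1 in KPC+GnP muscle. The log2 difference was 1.57 ± 0.19 (edgeR adjusted p = 0.000338) for KPC against control and -1.66 ± 0.19 (adjusted p = 0.000349) for KPC+GnP against KPC. Without animal 141 these were 1.74 ± 0.11 and -1.84 ± 0.11. Of the 6 methyl cycle genes tested 2 were called in KPC against control muscle, beside 49.7% of all genes. These were Ahcy and, in the other direction, Mat2a, named after its values were seen.

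NADP synthesis and repair gave 3 of 5 higher and 0 lower in KPC muscle, the third being Nadk, named after its values were seen. Beside each sublist count in this paragraph stand 49.7% of all genes called, 27.5% higher and 22.1% lower. Nadk2, the mitochondrial NAD kinase, rose by 0.74 ± 0.17 (edgeR adjusted p = 0.00324), and Carkd, the table's name for the repair dehydratase Naxd, rose by 0.79 ± 0.15 (adjusted p = 0.00130). Of the other sirtuins 2 of 5 were called. Sirt2, the cytosolic sirtuin, rose by 0.50 ± 0.10 (edgeR adjusted p = 0.00137), and Sirt5, a mitochondrial desuccinylase named after its values were seen, fell by 0.61 ± 0.17 (adjusted p = 0.0115). Of the 6 regulators tied to Nmrk2 or Nampt, 2 were called, both higher, and their log2 differences ran from -0.31 to 1.42. One of these 2, Prkaa2, the muscle catalytic subunit of the energy sensor AMPK, rose by 0.81 ± 0.18 (edgeR adjusted p = 0.00295), with KPC 1 at 519 CPM near the controls (443 to 518 CPM) and the other 3 at 930 to 989 CPM. Salvage enzymes and carriers outside the 9 genes gave 1 call of 7, the nucleoside carrier Slc29a2, which fell by 0.78 ± 0.25 (edgeR adjusted p = 0.0203) and was named after its values were seen, and the mitochondrial NAD carrier Slc25a51 was at -0.04 ± 0.09 (edgeR adjusted p = 0.763). Of the NAD-degrading enzymes, 2 of 3 fell (Nudt12 and Enpp1, named after their values were seen), and Cd38 was at -0.55 ± 0.23 (adjusted p = 0.0619 by edgeR). The de novo and Preiss-Handler genes (Afmid, Qprt and Nadsyn1) gave 0 of 3, with 0 at an unadjusted p under 0.05 by edgeR.

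With treatment, 22 of 50 list genes differed between KPC+GnP and KPC muscle at an edgeR adjusted p under 0.05, 14 higher and 8 lower (beside 23.1% of all genes higher and 26.7% lower), with a median log2 difference of 0.14 beside 0.02 over all genes. Parp9 (0.98 ± 0.17, edgeR adjusted p = 0.00101), Parp12 (0.86 ± 0.16, 0.00111), Parp14 (1.07 ± 0.20, 0.00119) and Tnks2 (0.46 ± 0.11, 0.00470) rose, and so did Cd38 (0.67 ± 0.23, 0.0282), which degrades NAD. Tnks (-1.15 ± 0.24, edgeR adjusted p = 0.00247), Parp4 (-1.14 ± 0.24, 0.00272), Carkd (-0.74 ± 0.15, 0.00179), Sirt2 (-0.51 ± 0.10, 0.00124), Prkaa2 (-0.73 ± 0.18, 0.00540) and Nadk2 (-0.47 ± 0.17, 0.0307) fell. Of the 6 regulators 3 were called beside 49.8% of all genes, 1 higher and 2 lower. The regulators' log2 differences ran from -1.68 to 0.81. Without animal 141, 19 list genes were higher and 11 lower, beside 3998 and 4058 of all genes. All of these rest on the same KPC libraries as the comparison with control. Scaled by library totals alone, which moved the median of all genes to 0.27, the split was 22 higher and 5 lower, and Sirt2 and Prkaa2 no longer passed. Between KPC+GnP and control muscle 0 of 50 were called by edgeR, 1 being under an unadjusted p of 0.05. The genes with the smallest p were Tiparp (0.51 ± 0.21), Ppargc1a (0.50 ± 0.24) and Parp2 (0.23 ± 0.11), each with an adjusted p of 0.9998.

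**Figure D5:**
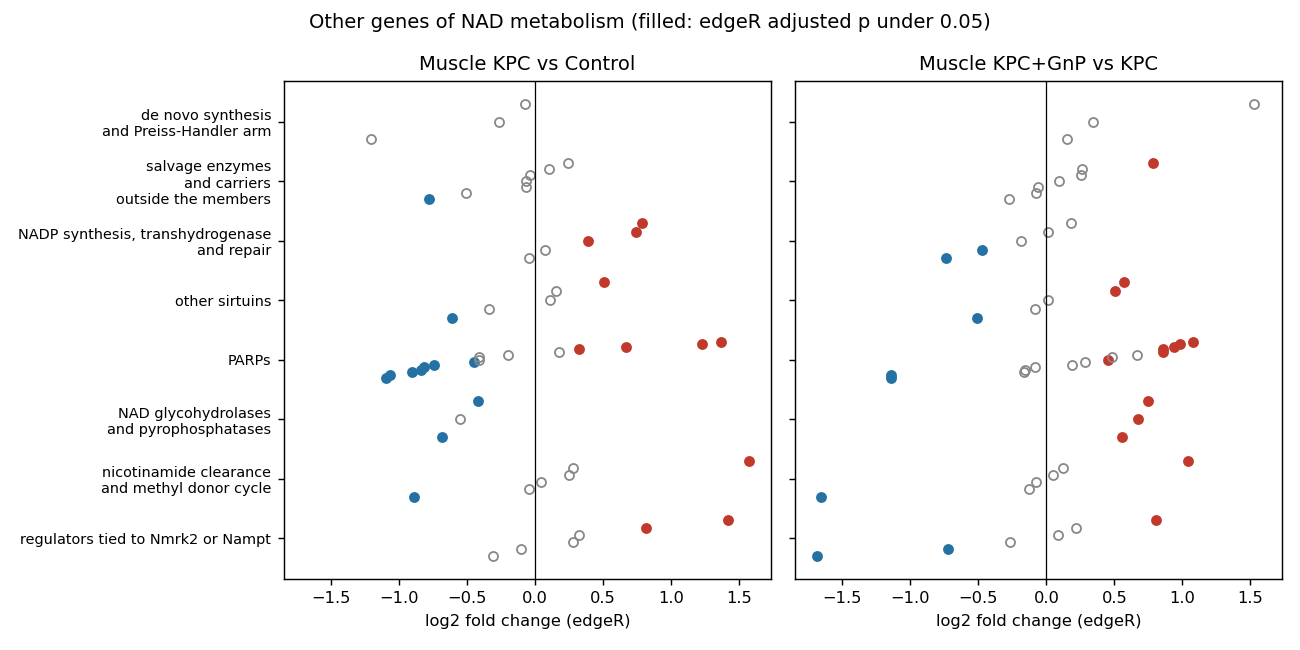
Log2 difference of the 50 tested list genes in muscle, KPC against control and KPC+GnP against KPC, by sublist, with genes past an edgeR adjusted p of 0.05 marked. In KPC against control the PARPs reach from -1.10 to 1.37, and Ahcy is the highest gene at 1.57.

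In heart 5 of 56 list genes differed between KPC and control at an edgeR adjusted p under 0.05, 3 higher and 2 lower (beside 4.95% of all genes higher and 4.38% lower). The median log2 difference was -0.03 beside 0.02 over all genes. Pnp, purine nucleoside phosphorylase, which can cleave nicotinamide riboside, rose by 1.62 ± 0.37 (edgeR adjusted p = 0.0281), with 48.6, 64.2, 34.6 and 14.6 CPM in KPC hearts against 11.7 to 16.3 in controls. Nt5e, the ectonucleotidase CD73, rose by 0.76 ± 0.18 (edgeR adjusted p = 0.0312), at 28.7 to 41.9 CPM against 13.9 to 26.1. By the edgeR test Ahcy rose by 0.97 ± 0.23 (adjusted p = 0.0303), Prkaa2 fell by 0.74 ± 0.20 (0.0400) and Parp1 fell by 0.28 ± 0.08 (0.0483). With 1 library left out, the calls of Ahcy, Prkaa2 and Parp1 were lost in 7 of 8 fits (all but that without animal 141), that of Pnp in 5 and that of Nt5e in 4, with adjusted p-values up to 0.0828, 0.113, 0.125, 0.0874 and 0.0793 by edgeR. Pnp and Ahcy of animal 141 lay within the controls' range (14.6 and 17.9 CPM). By this test 0 list genes were called when control 1, 3 or 4 or KPC 2 was left out, or when only the 2 groups were fitted. Without animal 141, 10 list genes rose and 7 fell, beside 1911 and 1643 of all genes. Cd38 was at 1.02 (edgeR adjusted p = 0.136), with KPC 2 at 111 CPM and the other KPC hearts at 19.7 to 31.4 beside at most 27.7 in controls. KPC 2 also had the most Pnp and the highest neutrophil (301 CPM) and macrophage (1702 CPM) marker sums of the KPC hearts, and the part of those cells in the Pnp, Nt5e and Cd38 values was not tested. Parp1 missed the threshold under other scalings, without the filter and by limma.

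In the other heart comparisons 0 of 56 list genes passed an edgeR adjusted p of 0.05. For KPC+GnP against KPC 12 list genes were under an unadjusted p of 0.05 by edgeR, beside 2886 of all genes, and DESeq2 called 4 higher and 2 lower. Without animal 141 edgeR called 5 higher and 2 lower, beside 576 and 616 of all genes. Against control 19 list genes were under an unadjusted p of 0.05 by edgeR, beside 2753 of all genes, and DESeq2 called 6 higher and 2 lower. DESeq2's counts over all genes in both comparisons are given with the alternative fits at the end. The smallest p-values against control were those of Tnks (-0.48 ± 0.12, edgeR adjusted p = 0.0721), Pnp (1.37 ± 0.37, 0.0776) and the clock gene Arntl (-2.04 ± 0.55, 0.0783). The riboside and mononucleotide carrier candidate Slc12a8 was at 1.56 ± 0.45 and Nmnat2, the Golgi form of the adenylyl transferases, at 1.45 ± 0.49 (adjusted p = 0.0944 and 0.139 by edgeR), both from low counts of at most 58 and 32 reads.

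Between control heart and control muscle 42 of 57 list genes differed, 26 higher and 16 lower in heart by edgeR, beside 30.3% and 29.2% of all genes, with a median log2 difference of 0.50 beside 0.06 over all genes. All 15 PARPs were called, 8 higher and 7 lower, beside 59.5% of all genes in either direction. The highest were Bst1 (4.11 ± 0.90, edgeR adjusted p = 0.000451), an NAD glycohydrolase related to Cd38, the mitochondrial transhydrogenase Nnt (2.89 ± 0.25, 2.07e-09) and Nt5e (2.28 ± 0.25, 5.39e-08). The lowest were Qprt of the kynurenine route (-2.96 ± 0.92, edgeR adjusted p = 0.00862), Prkaa2 (-1.61 ± 0.19, 2.64e-07) and Tnks2 (-1.56 ± 0.11, 5.33e-11). Qprt had at most 17 reads in a muscle and 13 in a heart library, and Qprt without heart control 2 was at -3.72. Bst1 without heart control 2 was at 3.36. Nnt had 403 CPM on the joint scale in heart and 54.3 in muscle. These are reads over the whole gene, and whether they stand for a complete transcript or a working enzyme was not tested. With scaling by library totals alone the lower count was 6.

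The tissues' responses differed for 14 of 57 list genes in KPC against control (8 higher and 6 lower in heart, beside 13.4% and 12.4% of all genes) and for 13 in KPC+GnP against KPC (7 and 6, beside 13.2% and 12.5%), by the edgeR test of the difference itself. For KPC against control the smallest p-values were those of Parp12 (0.93 ± 0.16, edgeR adjusted p = 0.00133), Prkaa2 (-1.47 ± 0.27, 0.00160), Tnks (-1.36 ± 0.27, 0.00249) and Parp9 (0.94 ± 0.23, 0.00657). Prkaa2 rose in KPC muscle and fell in KPC hearts, where its call was lost in 7 of 8 fits with 1 library left out (all but that without KPC 4, animal 141). For KPC+GnP against KPC they were Parp12 (-0.90 ± 0.16, edgeR adjusted p = 0.00120), Parp9 (-1.22 ± 0.23, 0.00161), Parp14 (-1.23 ± 0.24, 0.00203) and Cd38 (-2.08 ± 0.52, 0.00729), the last with 1 KPC heart at 111 CPM beside 19.7 to 31.4 in the others. In the animals with both tissues, with the animal as a block, 0 list genes passed in either difference, with adjusted p-values of 0.114 to 0.171 by edgeR for these genes in KPC against control and 0.115 to 0.144 in KPC+GnP against KPC, and 1 and 25 of all genes passed. Without animal 141, 14 list genes were higher and 12 lower in the first, beside 3438 and 2853 of all genes. In the second 8 were higher and 12 lower, beside 2855 and 3199 of all genes.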

How the data were processed

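For 24 libraries, 12 per tissue, an mRNA kit was used on 100 ng of total RNA and paired reads of 100 bases were sequenced, per the labels' protocols. Per the submitters' processing notes, the build was mm10 and the tools included STAR 2.5 and Subread 1.5.1 (featureCounts), with edgeR 3.12.1 and FastQC 0.11.5. They do not give the annotation or the strand setting. The authors deposited raw read counts per gene and, per tissue, log2 FPKM values, which were found to be those counts scaled by depth, a normalization factor close to TMM, and length. All columns matched a library (0 unmapped).

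The 9 genes, the wider list and the marker lists were chosen with earlier results of these data known. Counts were tested with the quasi-likelihood test of edgeR 4.0.16 (R 4.3.3), with TMM factors, genes kept by filterByExpr (minimum count 10, minimum total 15), 3 groups per tissue in one fit, and Benjamini-Hochberg adjustment over all genes at 0.05. Standard errors are the log2 difference over the square root of F. The tissues were compared in one fit of all 24 libraries, and log2 CPM has a prior count of 2. Named list genes are up to 10 with the smallest p past the threshold (3 whatever their p for KPC+GnP against control, the 3 highest and 3 lowest between tissues, up to 4 for differences in response), and Nmnat2, Slc12a8, Cd38, Parp1, Nadk2 and Slc25a51 whatever their values. Likeness to Nmrk2 names the 5 genes with the highest Pearson coefficient, without unnamed gene models. DESeq2 1.42.0, limma 3.58.1 on log2 FPKM, other scalings, no filter and leaving out each library were alternatives. The fit was tested on simulated counts.

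No 2 libraries were copies (lowest chi-square per gene 14.75 over 36 pairs of a group). Library names carry an animal number, which ties the tissues of 8 animals. Their deviations from the group means correlated at -0.189 to 0.191, so the animal block is an alternative fit. Within a tissue no libraries are paired. Read totals of 11020931 to 27382432 limit genes of a few reads, such as Nnmt in muscle.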

Additional observations from a re-analysis of the deposited data

Results flagged for a closer look

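In 17 of 192 groups of 4 libraries the highest or lowest library stood far from the other 3, where about 1 in 20, or 9.6, would be marked by chance. In muscle these were Nmrk2 in KPC 1 (animal 141), high at 31.6 CPM beside 0.896 to 1.65, Parp9 and Prkaa2 in the same library at 6.27 and 519 CPM, nearer the controls than the rest of its group, and Nmnat1 in control 1, low at 12 CPM. KPC+GnP 2 had Tiparp at 55.6 CPM, Tnks at 24.1 CPM and Nnt at 24.1 CPM. In heart, control 1 stood apart with Nmrk2 at 10.2 CPM, Ppargc1a at 261 CPM and Tnks2 at 130.1 CPM, and control 2 with Bst1 at 10.6 CPM, Nnt at 444 CPM and Pnp at 16.3 CPM. Control 3 had Parp4 at 48.6 CPM. KPC 1 had Parp4 at 50.1 CPM and Slc12a8 at 2.40 CPM, and KPC 2 had Cd38 at 111 CPM.

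By the edgeR test of the difference between tissues, KPC against control differed (heart minus muscle, log2) for Parp12 at 0.93, Prkaa2 at -1.47, Tnks at -1.36 and Parp9 at 0.94. KPC+GnP against KPC differed for Parp12 at -0.90, Parp9 at -1.22, Parp14 at -1.23 and Cd38 at -2.08. With the animal as a block in the 8 animals with both tissues, 0 of these passed.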

How the results depend on the processing

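Scaling by library totals alone moved the median log2 difference of all genes to -0.17, 0.27 and 0.10 in muscle (KPC against control, KPC+GnP against KPC, KPC+GnP against control) and to 0.17, -0.01 and 0.17 in heart. Between tissues it moved it to 0.70, where Nampt, Nmnat1 and Nmnat3 turned to 0.37, 0.27 and 0.39 and the list genes called lower fell to 6. With it, KPC+GnP against KPC muscle gave 5 of the 9 genes and 22 list genes higher and 5 lower. KPC against control hearts gave 5 higher and 1 lower, KPC+GnP against KPC hearts 1 higher, and KPC+GnP against control hearts 374 genes and 2 list genes higher. Its tissue differences in response gave 1 of the 9 genes in each, with 15 list genes higher for KPC against control and 2 higher and 13 lower for KPC+GnP against KPC.

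DESeq2 called 1 gene in KPC+GnP against control muscle. In heart it called 2499 genes (4 of the 9, 9 list genes higher) in KPC against control, 1136 (1 of the 9, 4 list genes higher and 2 lower) in KPC+GnP against KPC and 1056 (1, 6 and 2) in KPC+GnP against control. Limma called 88 and 86 genes in the last pair. With DESeq2's size factors, with limma or without the filter, KPC against control hearts had 1 list gene lower. Fits of only the 2 groups gave 229 genes, 0 of the 9 and 0 list genes in either direction there, 3 genes in KPC+GnP against KPC, and 918 genes (1 of the 9, 2 list genes higher and 1 lower) in KPC+GnP against control.

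With 1 library left out, KPC against control muscle gave 2 to 5 of the 9 genes and 7 to 13 list genes higher, and KPC+GnP against KPC muscle 3 to 5 of the 9. KPC against control hearts ranged over 104 to 3554 genes, 0 to 4 of the 9, and 0 to 10 list genes higher and 0 to 7 lower. KPC+GnP against KPC hearts ranged over 0 to 1192 genes, 0 to 1 of the 9, and 0 to 5 and 0 to 2 list genes, and KPC+GnP against control hearts over 1 to 340 genes and 0 to 3 list genes higher.

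With only the 8 animals with both tissues and the animal as a block, the tissue difference in KPC against control held for 1 gene. That in KPC+GnP against KPC held for 25, with 0 list genes in either direction. Without animal 141, chosen after seeing the data, these were 6291 genes (4 of the 9, 14 list genes higher and 12 lower) and 6054 genes (2 of the 9, 12 list genes lower). Of 432 counts of genes, members and list genes called under all alternatives, 327 stayed near their value. The other 1905 values were those of single genes, medians, group levels and counts of all genes by direction. Of these, 1725 stayed near their value or, for genes that were tested, kept direction and call. The cause of the changes was not tested.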
